A study of Drosophila melanogaster with 16 samples.

Results

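The domains described here are the intervals of 100 kb or more between neighbouring insulation boundaries on the autosome arms 2L, 2R, 3L and 3R of Drosophila melanogaster, in a Micro-C map of yw control embryos at nuclear cycle 14. They were chosen by size alone. Boundaries were sorted along each arm after repeat entries had been removed, and a domain ran from the end of a boundary bin to the start of the next. Domains above 22 Mb on 2L, above 23 Mb on 3L, below 5.5 Mb on 2R or below 4.5 Mb on 3R, near the centromeres, were left out. This gave 304 large domains of 1219 autosomal domains.

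Micro-C is a chromosome conformation capture assay that fragments fixed chromatin with micrococcal nuclease, down to single nucleosomes, and ligates fragments that were in contact. The series holds 16 samples, of which 14 carry edited genotypes (6 genotypes with 2 samples and 2 labels with 1) that were not analysed here. The 2 control samples are of the yw line, with the genotype given as WT and no further allele or agent in the labels. Their embryos were laid over 45 min at 25 °C, aged for 2 h, fixed in formaldehyde, pooled over several collections, fixed again with DSG plus EGS and sorted by hand for stage. Whole embryos were used, so each feature is an average over all cells of the blastoderm. The boundary and loop lists give a single value per feature and no value per sample, so no value below has a replicate error and no test was made over domains or genes. The read depth behind the lists is unknown. The track line of the boundary list names a 10 kb insulation setting, and the lowest listed strength was 1.2502, so weaker boundaries may lie inside the domains described.

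A contact domain, or topologically associating domain, is a stretch of chromatin whose sequences contact each other more often than they contact sequences beyond its ends. In flies, boundaries between domains often lie at active, broadly used promoters and at sites bound by insulator proteins. Loops are focal contacts between separate anchors, and many fly loops at this stage join promoters or tethering elements of developmental genes. Large domains in Drosophila are known to be poor in broadly expressed genes and to hold many tissue-specific genes that are silent in most cells.

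The 304 large domains were 24.9% of the domains but covered 60.3 of 91.1 Mb, or 66.2% of the length compared. Their median size was 171.0 kb (quartiles 132.7 and 235.8 kb), and the largest measured 640.8 kb. The 915 other domains had a median of 24.8 kb. Within the class, 111 domains reached 200 kb, 43 reached 300 kb, 11 reached 400 kb and 3 reached 500 kb. Large domains took 71.5% of the length of 2L (79 of 258 domains), 68.1% of 3L (77 of 294), 66.2% of 3R (87 of 355) and 58.0% of 2R (61 of 312). The domains just inside the size limit had 100.0 kb (with CG15803 as their longest gene), 100.4 kb (CG9270) and 100.4 kb (Gyc88E), and those just outside had 99.6 kb (fry), 99.6 kb (Tusp) and 99.2 kb (unc79).

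**Figure D1:**
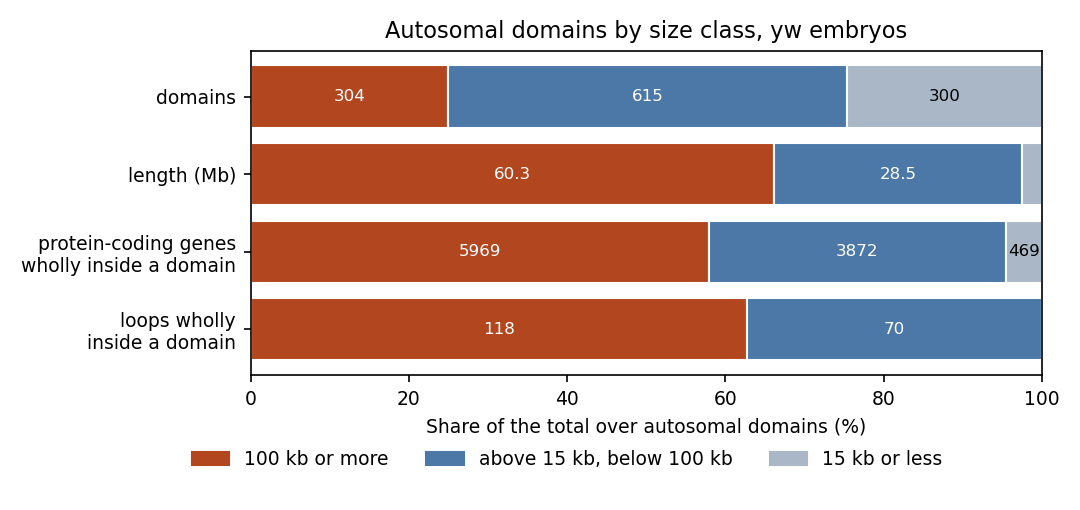
Share of autosomal domains, of their length, of protein-coding genes wholly inside a domain and of loops wholly inside a domain (x axis, percent) for the 3 size classes, with the number in each class written on the bars. The 304 domains of 100 kb or more hold 5969 genes and 118 loops, against 3872 genes and 70 loops in the 615 domains between 15 and 100 kb.

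Large domains were interspersed with smaller ones. Of the 605 neighbours of large domains, 132 (21.8%) were large, 319 (52.7%) lay between 15 and 100 kb and 154 (25.5%) had 15 kb or less. The neighbours of other domains divided in much the same way, with 25.9%, 49.8% and 24.3%. Of the runs of adjacent large domains, 188 were a single domain, 35 held 2, 14 held 3 and 1 held 4. That longest run covered 1144 kb at chr2L:15113601-16257600 and includes the domain of esg, wor and sna and the domain of the beat-I genes, both described below.

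Several of the 10 largest domains held neuronal and muscle genes. The largest, 640.8 kb at chr2L:16743601-17384400, held 51 protein-coding genes and no loop. It contained beat-IIIa (42.1 kb long), beat-IIIb (20.9 kb) and beat-IIIc (73.1 kb), 3 paralogs of the Beaten path family of neuronal immunoglobulin proteins, and Mhc, the muscle myosin heavy chain gene. The same domain held the taste receptor genes Gr36a, Gr36b and Gr36c and the detoxification genes Ugt37C2, Ugt37E1 and Ugt37D1. A related domain of 505.6 kb at chr2L:15752001-16257600, with 41 genes and no loop, held beat-Ia, beat-Ib and beat-Ic together with Ca-alpha1D, which encodes a voltage-gated calcium channel. The domain next in size, 506.8 kb at chr3L:4626801-5133600, had the 142.3 kb Con gene, encoding the adhesion protein Connectin, as the longest of its 32 genes.

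Of the 10 largest domains, 3 held a loop. A domain of 455.6 kb at chr2L:1158401-1614000 held robo2 (40.4 kb) and robo3 (40.2 kb), both receptors for the midline repellent Slit, and 1 loop of value 36.4 that starts at robo2. A domain of 436.4 kb at chr3R:22721201-23157600 held 56 genes, among them hh, the Hedgehog ligand gene, and klg (62.4 kb), which encodes a neuronal immunoglobulin protein, and 1 loop. The domain of 450.4 kb at chr3L:18167601-18618000 held the cell death activators hid, grim, rpr and skl with 20 other genes. It held 2 loops. In that domain hid lay at the left edge, a gene-free stretch of 93.1 kb separated grim from rpr, and a loop of value 48.2 ran 48.0 kb rightwards from the end of hid. The domain of 412.4 kb at chr2R:19699201-20111600 held only 22 protein-coding genes, among them Obp56c to Obp56i and the Toll family receptor gene Toll-7, but also all 96 of the 5S rRNA genes annotated on these arms, in an array of 36.7 kb.

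The others of the 10 were a domain of 476 kb at chr2R:23079601-23555600 with 77 genes, including 9 taste and odorant receptor genes from Gr59a to Gr59f and Or59a to Or59c, a domain of 451.6 kb at chr3R:19326401-19778000 with Dys (136.2 kb, the dystrophin gene) and GluClalpha (44.5 kb, a glutamate-gated chloride channel), and a domain of 426 kb at chr3L:13502801-13928800. The last had 13 genes, and 66.1% of it was taken by bru3, a gene of 281.5 kb that encodes an RNA-binding protein.

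Genes were sparser in large domains than in the others. The 5969 protein-coding genes wholly inside a large domain gave 99.0 genes per Mb, with a 95% Poisson interval of 96.5 to 101.5 for counting error only, against 140.8 per Mb in other domains. Over all 11456 protein-coding genes of these arm parts, 52.1% lay wholly inside a large domain. The 2R and 2L domains were denser (114.2 and 100.4 per Mb) than those of 3R and 3L (95.2 and 90.6). The 2L value includes 111 histone genes in a single domain of 141.2 kb. Whether 2L stays above 3R without that domain was not tested. A large domain held a median of 18 genes (quartiles 11 and 25, range 1 to 111) and an other domain a median of 3. Every large domain held at least 1 whole gene, whereas 142 of 915 others held none, 93 of them domains of 15 kb or less. A larger interval can hold more genes, so these counts per domain also carry the size of the domains. Genes that cross an edge are not counted here, which costs small domains more of them. Counting each gene by its midpoint gave 104.0 per Mb in large and 165.4 in other domains.

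Gene-free stretches were longer in large domains. Protein-coding genes covered a median of 71.9% of a large domain and 91.4% of an other domain. The longest gene-free stretch had a median of 22.9 kb in large domains, with quartiles of 9.86 and 36.1 kb, against 0.929 kb in others, and it reached 50 kb in 41 large domains but in 3 others. A larger interval can hold a longer stretch, so these medians also carry the size of the domains. The longest stretch, 138.2 kb between the odorant receptor gene Or67d and CG12362 on 3L, held 7 lncRNA genes and 2 loop anchors. The next, 121.1 kb between CG10651 and CG17571 on 2L, held 3 lncRNA genes and no anchor, and 117.1 kb lay beside vvl, a POU transcription factor gene, with 1 anchor inside. Other wide gaps adjoined kek1 (89.7 kb), pros (81.6 kb, a neural fate regulator), comm (79.9 kb, which controls midline crossing of axons) and caup and mirr (71.8 kb between them).

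Genes inside large domains were a mixture of many short and some very long ones. The median gene length was 1816 bp in large domains and 2092 bp in others, and by midpoint 1890 and 2282 bp. At the other end, genes of 20 kb or more made up 8.13% of genes with their midpoint in large domains and 4.75% in others. By midpoint, large domains held 54.8% of all protein-coding genes, 67.6% of the 754 genes of 20 kb or more and 80.1% of the 211 genes of 50 kb or more. They also covered 66.2% of the length compared, close to the share at 20 kb or more. Domains below 100 kb leave less room for long genes, so these shares also carry the size of the domains.

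In 29 large domains (9.54%) a single gene wholly inside took more than 50% of the length. Besides bru3 they included Rbp6 (179.4 of 226 kb), mbl (162.8 of 293.2 kb, muscleblind) and shep (122.1 of 225.6 kb), which all encode RNA-binding proteins. Cell surface genes were dpr6 (164.7 of 257.2 kb), Ten-m (114.8 of 140.4 kb, the teneurin that guides synaptic partner matching) and Ptp99A (109.5 of 183.2 kb, a receptor tyrosine phosphatase). Transcription factors were luna (138.4 of 234.8 kb), fru (131.3 of 245.6 kb, the regulator of male courtship) and hth (132.0 of 258.8 kb, the Hox cofactor homothorax). The highest share was 84.0%, for CG46244 in a domain of 148.8 kb on 2L. The Hox gene Ubx took 77.8 of 142 kb.

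In 20 large domains, 19 of them not among these 29, a gene that crossed an edge and so was not counted as inside covered more than 50%. In 10 of the 20 less than 2 kb of the gene lay outside, which means the boundary bin fell close to a gene end. The translational repressor gene pum, 171.3 kb long, covered 99.6% of a 171.6 kb domain on 3R whose only whole gene was CG11997, nested in pum, at 5.83 genes per Mb, the lowest density of all. Lar, a receptor phosphatase gene, covered 97.1% of the 148.8 kb domain that also holds CG46244. Next in sparseness came the 134 kb domain on 2R that is 83.0% covered by the transcription factor gene jing, with CG15233 as its whole gene, and a 116.4 kb domain on 2R with en as its whole gene. The paralog of en, inv, lay mostly in the same domain and crossed its left edge. The hth domain followed, with 3 whole genes in 258.8 kb.

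At the dense end, 16 large domains exceeded 200 genes per Mb. The extreme was the histone locus at chr2L:21408001-21549200, a domain of 141.2 kb in which all 111 of the protein-coding genes were histone genes, which is all 111 that the table lists on these arms, at 786 per Mb. Its flanking boundaries had strengths of 2.97 and 4.78, against a list median of 1.60. Reads in this repeated array are hard to place, and how the authors treated them is not stated in the labels or headers. The next densest were 109.2 kb on 2L with 36 genes (330 per Mb; bsk, the fly JNK gene, is its first), 246 kb on 3L with 72 genes (293 per Mb) and 162.4 kb on 2R with 42 genes (259 per Mb), among them shn and the cuticle genes Cpr47Ea to Cpr47Eg.

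The share inside large domains differed between classes of noncoding genes. By midpoint, 68.1% of 1648 lncRNA genes and 65.5% of 145 pseudogenes lay in large domains. Beside these stand 54.8% of protein-coding genes and 66.2% of the length compared. For antisense RNA genes the share was 51.2% of 412, for miRNA genes 50.0% of 196 and for tRNA genes 49.6% of 266. These are near the protein-coding share. For snoRNA genes it was 47.4% of 234 and for snRNA genes 33.3% of 30.

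Which kinds of genes lay in large domains was described with 22 gene lists in 4 classes: developmental regulators, neuronal genes, housekeeping genes, and late genes, meaning families used in larval or adult tissues such as chemoreceptor, cuticle and immune peptide genes. Neuronal genes and late tissue-specific genes stood above the 52.1% of all protein-coding genes, and developmental regulators and housekeeping genes below it. Wholly inside large domains were 110 of 146 neuronal genes (75.3%), 399 of 612 late genes (65.2%), 53 of 143 developmental genes (37.1%) and 87 of 242 housekeeping genes (36.0%). Many listed genes share a domain or a tandem cluster, so they are not independent observations.

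**Figure D2:**
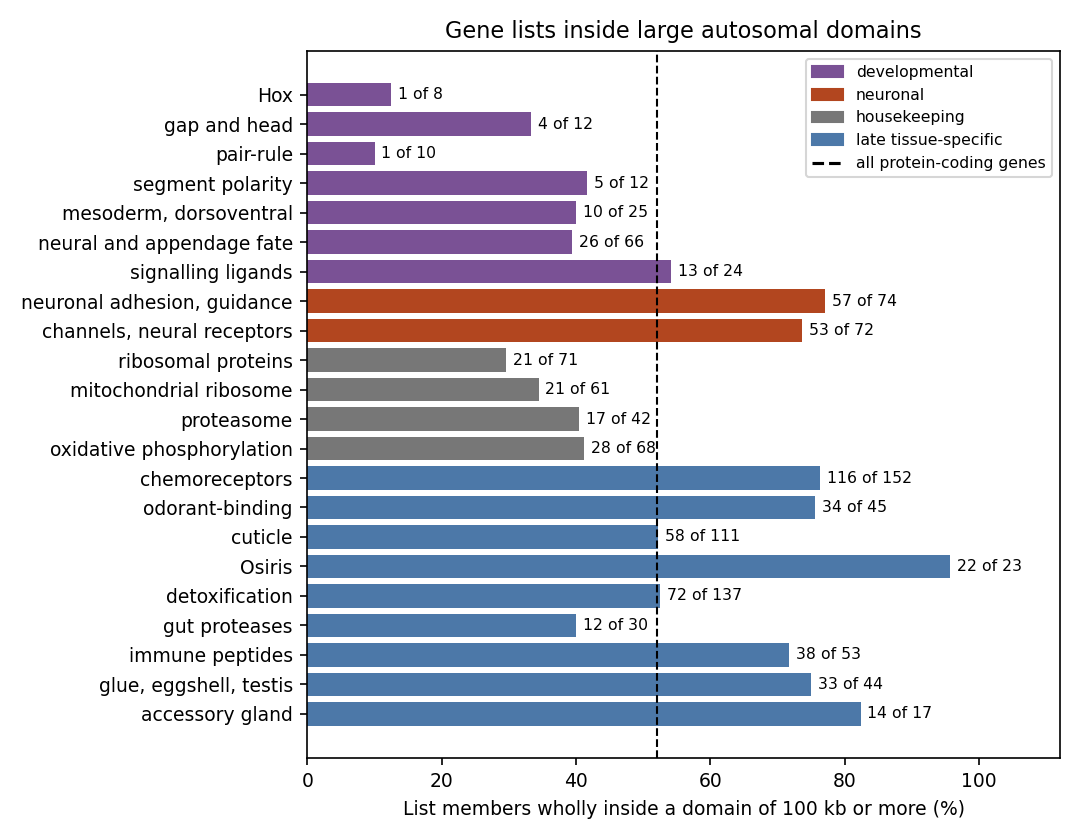
Percentage of the members of each of 22 gene lists that lie wholly inside an autosomal domain of 100 kb or more (bars, with counts beside them); colours give the class of the list and the dashed line marks the 52.1% of all protein-coding genes. Chemoreceptor, odorant-binding, Osiris and both neuronal lists are among those above 70% and Hox, pair-rule and ribosomal protein lists lie below 30%.

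Among neuronal genes, 57 of 74 adhesion and guidance genes (77.0%) and 53 of 72 channel and neural receptor genes (73.6%) were wholly inside. The first group took in CadN (131.3 kb long, N-cadherin), the neuroligin genes Nlg1, Nlg2, Nlg3 and Nlg4, the semaphorin genes Sema2a and Sema2b, and 14 of 16 dpr genes, whose proteins pair with DIP proteins at synapses. The second took in the potassium channel genes Shab (64.6 kb), slo (49.1 kb) and Elk (52.8 kb), the GABA receptor gene Rdl (36.3 kb), the dopamine receptor gene Dop1R1 (49.4 kb) and the serotonin receptor gene 5-HT1A (54.8 kb). The acetylcholine receptor genes nAChRalpha1, nAChRalpha2 and nAChRbeta2 lay in a single domain of 196 kb on 3R.

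Neuronal genes had a median length of 28.9 kb, against 2.06 kb for all protein-coding genes, so shares were also given by gene length and by midpoint. Of neuronal genes of 20 kb or more 88.1% (74 of 84) lay in large domains, against 65.1% of 670 other genes of 20 kb or more. That class has no upper limit, and lengths within it were not matched. Of all 211 genes of 50 kb or more, 80.1% lay in large domains. From 5 to 20 kb the shares were 64.0% (32 of 50) for neuronal and 46.7% for other genes, and below 5 kb 9 of 12 neuronal genes and 55.3% of other genes. For developmental genes the shares were below those of other genes at each length. They were 55.6% (25 of 45) against 68.4% from 20 kb, 40.9% (18 of 44) against 47.3% from 5 to 20 kb and 31.5% (17 of 54) against 55.5% below 5 kb.

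Of the developmental lists, the patterning genes of the early embryo were mostly not wholly inside large domains. Of 8 Hox genes only Ubx was wholly inside one, and of 10 pair-rule genes only hry (hairy). Antp, another Hox gene, crossed an edge and had 86.4 of its 103.0 kb in a large domain of 161.6 kb on 3R. Of 12 gap and head genes 4 were inside (kni, knrl, hb and ems), of 12 segment polarity genes 5 (hh, wg, Wnt6, Wnt10 and en), and of 25 mesoderm and dorsoventral genes 10, including twi, sna, dpp and rho. Neural and appendage fate genes had 26 of 66 inside (39.4%) and signalling ligands 13 of 24 (54.2%). Counts by midpoint were 2 Hox, 6 segment polarity, 12 mesoderm and dorsoventral, 28 neural and appendage fate and 15 signalling ligand genes. The pair-rule and the gap and head counts did not change. Of the 143 developmental genes, 63 lay in domains between 15 and 100 kb, 4 in smaller ones and 23 crossed a boundary, whereas of all 11456 genes 3872, 469 and 1146 did so.

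Several late gene families lay together in a single large domain. Of 23 Osiris genes, an insect-specific family, 20 lay in a single domain of 342 kb at chr3R:6008801-6350800 among 45 genes, with no loop. The Tweedle cuticle genes had 13 members in 188.8 kb on 3R, from TwdlM to TwdlQ. The Eig71E genes, ecdysone-induced genes, had 11 members (Eig71Ea to Eig71Ek) in 196 kb on 3L, the domain that also holds comm and comm2. A domain of 151.6 kb at chr2R:18288801-18440400 held 10 glutathione transferase genes (GstE1 to GstE10) and 10 Bomanin genes, which encode immune peptides. Taste receptor clusters Gr22a to Gr22f and Gr64a to Gr64f, with 6 genes each, lay in domains of 151.6 kb on 2L and 192.8 kb on 3L. Not every late family stood above all genes: 58 of 111 cuticle genes (52.3%), 72 of 137 detoxification genes (52.6%) and 12 of 30 gut protease genes (40%) were inside.

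**Figure D3:**
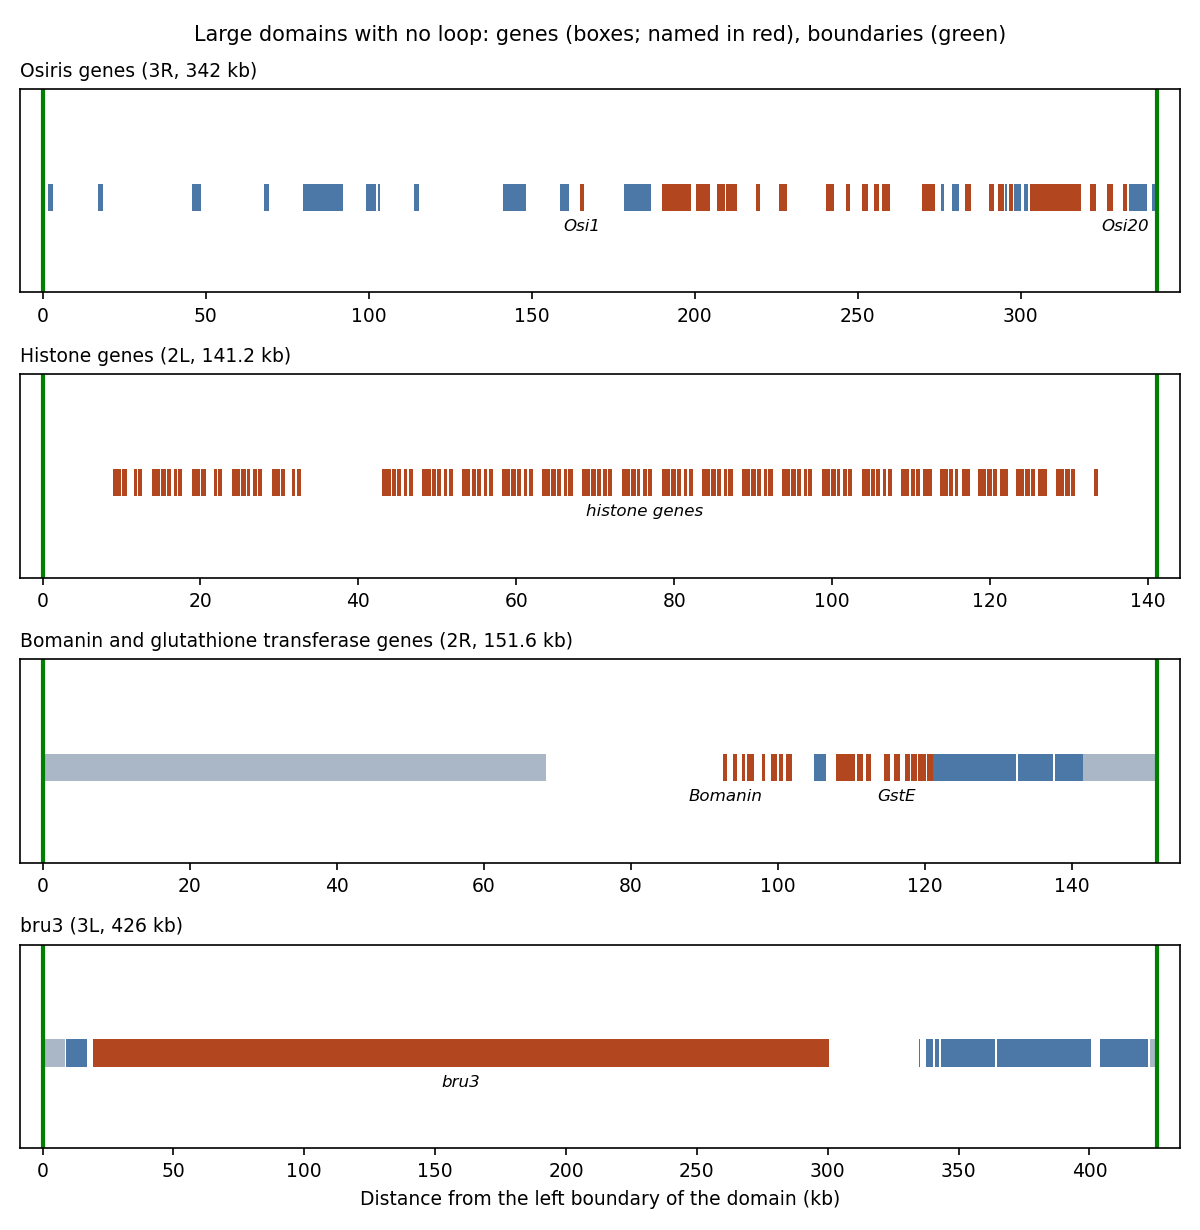
Maps of 4 large domains without a loop, with distance from the left boundary in kb on the x axis; boxes are protein-coding genes, red for those named, blue for others and grey for genes that cross an edge, and green lines are the flanking boundaries. The Osiris genes fill the right part of a 342 kb domain, 111 histone genes are the content of a 141.2 kb domain, and bru3 alone takes 66.1% of a 426 kb domain.

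Ribosomal protein genes lay as often at the edge of a large domain as wholly inside one. Genes that cross a boundary do not count as inside, and 21 of the 71 (29.6%) did so, against 10.0% of all genes. By midpoint 27 of the 71 (38.0%) were inside, against 54.8% of all genes. Of 71 such genes 21 (29.6%) were wholly inside, and 21 had an end 1 kb or less from a flanking boundary, among them RpS15 (boundary strength 2.91), RpS21 (2.72), RpL3 (2.56) and RpL30 (2.54). At boundaries that flank no large domain there were 26 of the 71 (36.6%). Of all protein-coding genes 7.88% were at a boundary of a large domain and 9.79% at another boundary. Mitochondrial ribosomal genes were inside in 21 of 61 cases (34.4%), proteasome genes in 17 of 42 (40.5%) and oxidative phosphorylation genes in 28 of 68 (41.2%).

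The boundaries around large domains resembled the rest. The 542 boundaries that flank at least 1 large domain had a median strength of 1.62 (quartiles 1.41 and 1.90), and the 681 that flank none had 1.58 (1.40 and 1.88). Strength is a score on the authors' own scale, and values were compared only within this list. Of the 542, 52.4% lay above the list median and 88.7% were 1 kb or less from the end of a protein-coding gene, against 48.0% and 87.5% of the 681. With only boundaries of strength 1.5 or more the order turned, to 49.3% and 51.3%.

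The strongest boundary of a large domain, strength 7.80, lay at chr3R:5008001-5008400 inside the gene plh, left of a 118.8 kb domain with 2 whole genes, among them corto. The next, 4.81, lay inside sls, the gene of a giant muscle protein, at chr3L:2064001-2064400 with a large domain on either side, 24.3 kb from the nearest gene end. The right edge of the histone domain followed (4.78). Of the 10 strongest, 4 had a gene end within 1 kb, against 88.7% of all 542, and 6 had none. The 4 had a gene end in the bin itself, at escl and Ada1-2 (3.84), Atpalpha (3.34), NAT1 (3.17) and CG42336 (3.14). Of those without, the bins of strength 3.89 on 3R and 3.65 on 2R lay 2733 and 1095 bp from a gene end. The strongest boundaries that flank no large domain were not examined for this. The Ubx domain at chr3R:16656401-16798400 had 3.16 on its right, 8.38 kb from a gene end, and 2.62 on its left, beside modSP and 0.223 kb from the end of Ubx.

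Large domains held a loop more often than others, but at no higher density. Of the 222 loops in these arm parts, 118 (53.2%) lay wholly inside a large domain, 70 (31.5%) inside another domain and 34 inside none. At least 1 whole loop lay in 89 of 304 large domains (29.3%, 95% Wilson interval 24.4 to 34.6%), against 65 of 915 others (7.1%) and 12.6% of all autosomal domains. A domain smaller than a loop cannot hold it, and the others had a median size of 24.8 kb, so these shares also carry domain size. Per Mb there were 1.96 loops in large domains, with a 95% Poisson interval of 1.62 to 2.34, and 2.27 in others. All 70 of the loops in other domains were in those above 15 kb (2.45 per Mb). Within the large class the share with a loop was 23.7% from 100 to 150 kb, 25.3% from 150 to 200 kb, 36.8% from 200 to 300 kb and 39.5% from 300 kb, and the density 2.68, 1.69, 2.14 and 1.36 per Mb. The list holds only called loops, so a domain listed without one may still contain weaker contacts.

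Most loops inside a large domain spanned under 50% of it. The 118 loops spanned a median of 40.2 kb (quartiles 25.0 and 59.8 kb, range 9.2 to 150.4 kb), which was 20.9% of the domain. Only 8 spanned more than 50%. Loops in domains of 15 to 100 kb spanned 21.4 kb or 37.0% of the domain. These loops were kept for lying between the boundary bins, and larger domains leave more room, so the distances that follow are a description of that set. The anchor nearest to an edge was at a median distance of 36.0 kb in large domains and 7.2 kb in the 15 to 100 kb class. An anchor lay within 5 kb of a flanking boundary in 11 of 118 loops (9.32%), both did in none, and in 82 (69.5%) both were 20 kb or more away. Over all 222 loops, inside a domain or not, 38 had an anchor within 5 kb of a flanking boundary bin on either side of it, and 11 had an anchor that overlapped such a bin. A single loop, with the high value of 121.0 and a span of 239.6 kb, joined both ends of a large domain, the 234.4 kb one at chr3L:11252801-11487200. Its right anchor was the right boundary bin, and its left anchor lay 4.4 kb outside the left one. The gene scyl crosses the left edge of that domain, and its paralog chrb has an end in the right boundary bin, the right anchor of this loop. Another loop there (value 42.4), 58.4 kb long, had its right anchor within 1 kb of that end of chrb.

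**Figure D4:**
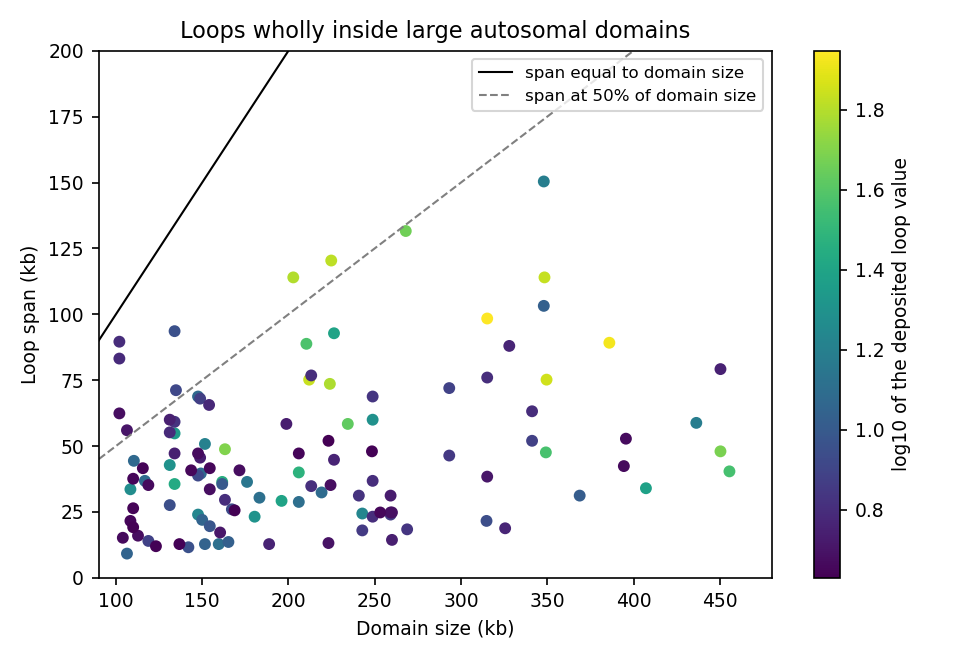
Span of each of the 118 loops wholly inside a large domain (y axis, kb) against the size of that domain (x axis, kb), coloured by log10 of the deposited loop value. The solid line marks a loop that spans its whole domain; 110 points lie below the dashed line at 50% and 8 above it, with the highest share at 87.8%.

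Loop values, again the authors' score, had a median of 7.39 in large domains (quartiles 5.19 and 15.3) and 6.33 in the 15 to 100 kb class. Anchors were not all of the same width, and whether values compare between widths is not stated in the labels or headers. The highest, 88.6, joined an end of hbs (hibris, a cell adhesion gene) to a site 98.4 kb away with no gene end, in a domain of 315.2 kb at chr2R:14994001-15309200. The next, 84.4, ran 89.2 kb from salr and enclosed salr and salm, the paired spalt zinc finger genes. Paralogs were joined by the loops between knrl and kni (71.4, 75.2 kb), both of the nuclear receptor family, between bab1 and bab2 (68.6, 75.2 kb), and between trn and caps (68.1, 114 kb), whose proteins carry leucine-rich repeats. The others of the 10 highest were loops at tna (65.2, 120.4 kb), vvl (62.7, 114 kb), smal with Ddr (60.7, 73.6 kb), Ggamma30A (49.9, 48.8 kb) and hid (48.2). The smal and Ddr loop is another between related genes, since both encode discoidin domain receptors.

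By length the first was a loop of 150.4 kb (value 15.3) that started inside CG2121 on 2R and enclosed 19 genes, among them Lcp1 to Lcp4, larval cuticle genes, and Mal-A1 to Mal-A8, maltase genes. The second, 131.6 kb with value 45.9, joined beat-Vc to beat-Vb in a domain of 268 kb and enclosed beat-Va. The esg to wor loop (92.8 kb, value 24.9) was also among the 10 longest.

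Gene ends were present at some anchors only. A protein-coding gene end lay within 1 kb of both anchors in 20 of 118 loops (16.9%), of 1 anchor in 44 (37.3%) and of neither in 54 (45.8%). Both anchors lay inside the same gene in 35 loops (29.7%), and 49 (41.5%) enclosed no whole gene. These shares were not set beside those of loops in other domains. Without strand, a start cannot be told from an end. The 118 loops touched 103 genes. Of the 5969 genes wholly inside large domains 1.84% had an end at an anchor of any loop, as did 1.89% of the 4341 genes wholly inside other domains and 1.9% of all protein-coding genes.

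Developmental genes, fewer in large domains, were the class most often in those with a loop. Of the 53 inside, 34 (64.2%) lay in a domain with a loop and 18 at an anchor, against 30.6% of the 5969 genes in large domains. For late genes the share was 30.8%, for housekeeping genes 27.6% and for neuronal genes 24.5%. All 4 of the gap and head genes inside were at an anchor, and so were 10 of 26 neural and appendage fate genes, 7 of 57 adhesion and guidance genes and 1 of 53 channel and receptor genes. Of all 5969 genes inside large domains 99 (1.66%) were at an anchor of a loop inside one. Developmental genes were present in 23 of 89 large domains with a loop (25.8%) and in 17 of 215 without (7.91%). Domains with a loop were larger (median 188.8 kb against 162.8 kb), with 96.4 and 100.1 genes per Mb and a median longest gene-free stretch of 27.3 and 20.2 kb, so size differs along with gene content and its part in these shares was not tested.

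More than 1 loop lay in 21 large domains. In all, 68 domains held 1 loop, 15 held 2, 4 held 3 and 2 held 4. The domain of the growth factor genes Pvf2 and Pvf3 (147.6 kb at chr2L:7056401-7204000) had 4 loops with values of 17.1, 11.9, 8.35 and 4.65, each with an anchor inside Pvf3 and 1 also inside Pvf2. The jing domain (134 kb at chr2R:6479201-6613200) also had 4, with values of 26.8, 9.0, 6.63 and 5.59, all with both anchors inside jing. The nub and pdm2 domain, named for adjacent POU transcription factor genes, had 3 (19.5, 6.83 and 6.31). The hbs domain held 2 more loops besides its highest, of 6.30 and 5.14, the last with igl at an anchor. A domain of 102 kb on 3L held 3 loops (6.24, 6.14 and 4.75), all starting inside CG33700, and 2 ended inside Tmc. In the 206 kb domain of the Iroquois genes at chr3L:12526801-12732800, a loop of value 12.8 joined ara to caup, a loop of 4.42 ran on from ara past caup, and a loop of 30.0 joined mirr to the gene-free stretch between caup and mirr.

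**Figure D5:**
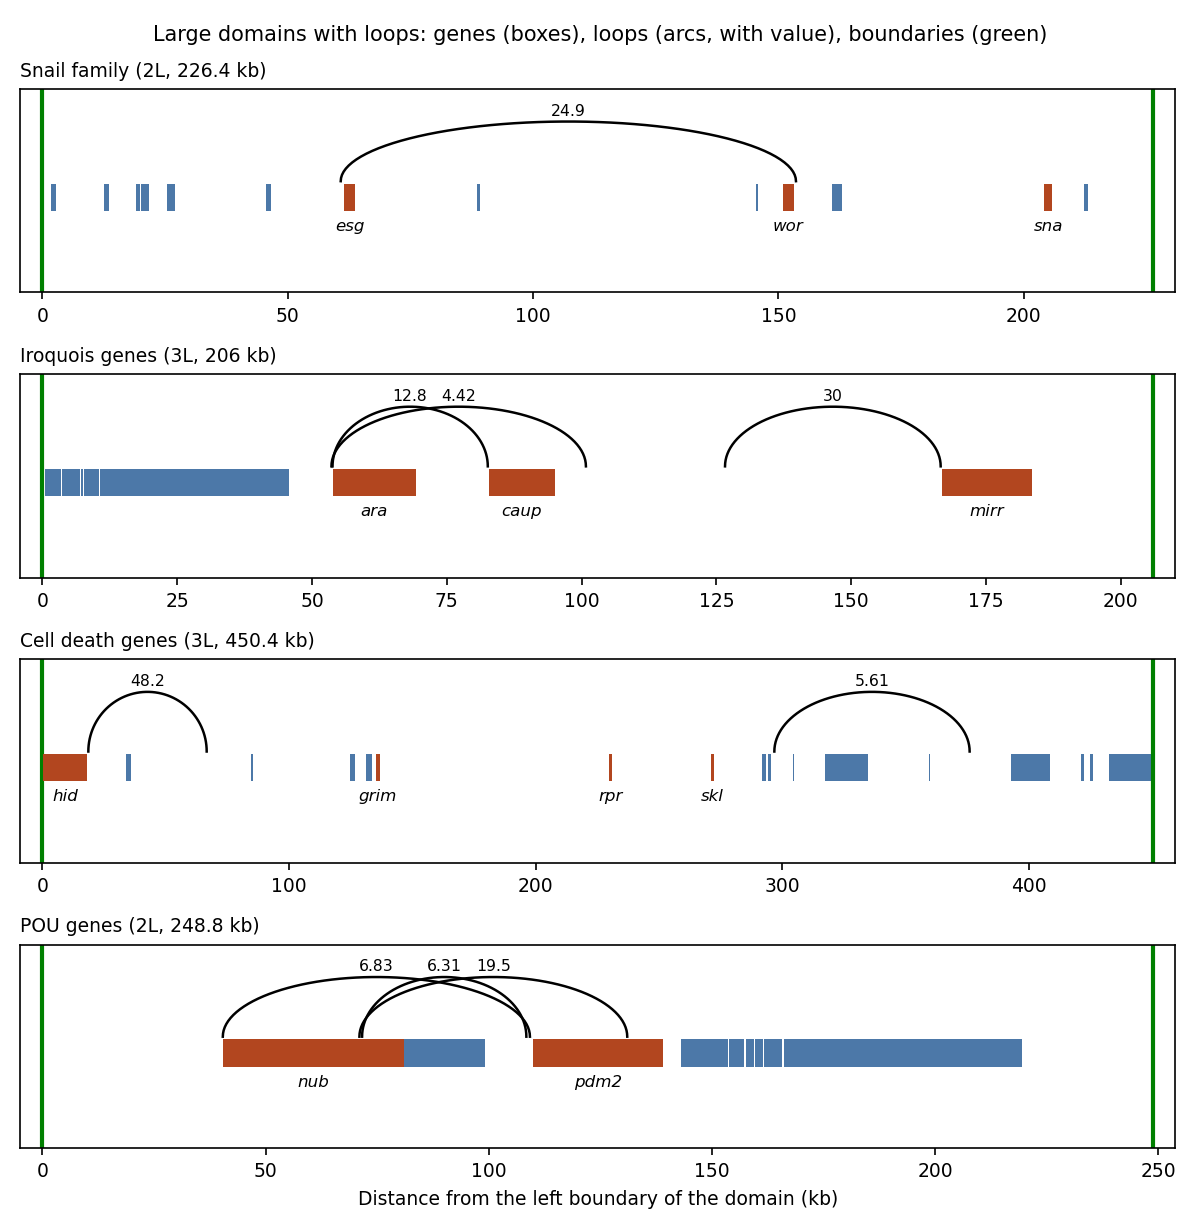
Maps of 4 large domains with loops, with distance from the left boundary in kb on the x axis; boxes are protein-coding genes (red for those named, blue for others), arcs are loops labelled with their value, and green lines are the flanking boundaries. The esg to wor loop, the 3 loops at the Iroquois genes, the loop from hid and the 3 loops at nub and pdm2 all end well inside their domain or beside a named gene.

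The domain of the Snail family genes (226.4 kb at chr2L:15272401-15498800, 13 genes) shows the arrangement at a single locus. The loop joined esg to wor, with its anchors 60.4 kb from the left and 72.4 kb from the right boundary, and sna lay outside the loop towards the right. By contrast, the domain of wg, Wnt6 and Wnt10 (129.6 kb at chr2L:7258401-7388000), whose 4 whole genes include these 3 Wnt ligand genes and which also holds 18.8 of the 21.8 kb of Wnt4, had no loop, nor had those of hth and en.

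A further 13 loops had an anchor in a large domain but left it, 6 into a different domain and 7 with the other anchor in a boundary bin. Of these, 5 had values above 60, among them the loop of 100.9 within Ptp61F with rho at its right anchor, a loop of 81.6 that spanned 180.8 kb on 3L, and a loop of 61.2 that reached dac, a retinal determination gene. The longest was 223.2 kb (value 16.3) with an anchor inside CadN2.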

How the data were processed

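Chromatin contacts of yw control embryos were analysed from the deposited lists of boundaries and loops. Reads were aligned with BWA 0.7.17 to dm6, per the submitters' processing notes; contact maps, normalization, boundary and loop calling, and whether the 2 control samples were pooled: not given in the sources used here. Boundary strength and loop value are scores that the authors deposited without a stated scale; the loop table has the columns of the SIP caller, per the file headers. Strengths and values were compared only within their list. No counts were used, so depth is unknown, and intervals cover counting error only.

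Of 2034 boundary entries 14 were repeats, which left 2020 bins of 400 bp on all arms; of 313 loops, 222 lay in the arm parts compared. Boundary positions are written from 1 in the files and loop positions from 0, and loops were converted. A gene, or a loop with both anchors, was inside a domain when wholly between the boundary bins. Gene positions are those of RefSeq for Release 6, which is dm6, with 11456 protein-coding genes in the arm parts compared. The table has no strand, so distances of 1 kb or less are to either gene end, and with no sequence used here the planned promoter motif shares were not run and no sequence is shown.

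Values are counts, shares, medians and quartiles, beside the same for other domains or all genes. No test was made, as the lists have no value per sample. Alternative settings changed the size limit, the boundary strength, the arm limits, gene and loop assignment, the anchor distance, the arms used and the largest domains. Domain and gene assignment was tested on simulated data. Python 3.11.15 with pandas 2.3.3, numpy 2.4.6, scipy 1.17.1 and matplotlib 3.10.9 was used.

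The size rule, the 22 gene lists and the alternatives were chosen with earlier results of these data known. After symbols were seen, GluRS-m, Cp190 and Acph-1 were left out of lists that their symbols had matched, accessory gland genes were moved from the cuticle list to a list of their own, fd64A was matched as FoxL1, hairy as hry, and the ligand Dl as Delta. Named are genes of the 10 largest domains, genes at the 10 highest and 10 longest loops, of the domains with most loops and of the densest and sparsest domains, genes over 50% of their domain, list members by domain size, and genes at the 10 strongest flanking boundaries. Other genes, such as those beside gene-free stretches, in clusters, crossing an edge or at loops that leave a domain, Wnt4, scyl, chrb, grim, rpr, skl and the Eig71E and Twdl series included, were chosen after their values were seen.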

Additional observations from a re-analysis of the deposited data

How the results depend on the processing

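Most values moved by less than their counting interval or 1.5 times under the alternative settings (64 of 85 values). The tally is no measure of robustness, since some settings could hardly move a value, such as keeping repeat boundary entries. The number of large domains was 190 with a limit of 150 kb and 174 with boundaries of strength 2 or more. With boundaries of strength 1.5 or more, which joins neighbouring domains, genes per Mb were 112.7 (139.5 in other domains), the median gene length 1933 bp, the share with a loop 36.3%, and the shares of list genes inside 55.9% (developmental), 84.2% (neuronal), 59.9% (housekeeping) and 82.0% (late), beside 72.8% of all genes. There the share of flanking boundaries above the median turned to 49.3%, against 51.3% of other boundaries; the cause was not tested. By gene midpoint the density was 104.0 per Mb and the median length 1890 bp, and by any overlap 105.3 per Mb. Loops of at least the median value were in 16.8% of large domains. Only 40 genes had an end inside the anchor itself, since the distance allowed is shorter. Without the 10 largest domains, whose genes still counted in the totals, 65.8% of neuronal and 60.5% of late genes were inside, beside 48.6% of all genes.

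Leaving out each arm in turn gave 217 to 243 domains, 95.4 to 101.8 genes per Mb, a median length of 1772 to 1850.5 bp, a loop share of 28.4 to 30.4%, 1.83 to 2.13 loops per Mb, 50.8 to 53.5% of flanks above the median, 66 (without 3L) to 90 genes at anchors, and 30.3 to 43.1% of developmental, 73.3 to 78.9% of neuronal, 34.5 to 37.6% of housekeeping and 61.2 to 68.1% of late genes inside. No paired analysis was possible because the lists have no value per sample. The promoter motif shares and both of their alternatives were not run. The unknown depth limits the weak end of both lists: boundaries under the listed strength and weaker loops would divide or fill large domains.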
